A study of Homo sapiens with 12 samples.

Results

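The 34 genes described here encode enzymes and carriers of glycolysis and glucose handling. They were chosen by name, with earlier results of these data known. They comprise 2 glucose carriers, 2 lactate carriers and 20 genes of the steps between hexokinase and lactate dehydrogenase. The others are 5 genes at the entry of pyruvate into the mitochondrion and 5 listed under glycogen synthesis. All 34 were found by symbol among the 64252 gene IDs of each count table, and all 34 were among the 15094 genes that passed the filter on low counts. The cells were MDA-MB-231, an established human line of triple-negative breast cancer that the labels call an epithelial adenocarcinoma, after transfection with a plasmid of Dicer mutation 1, mutation 2 or mutation 3, or of wild-type Dicer. Each of the 4 groups held 3 poly(A)-selected RNA libraries. The genotype label numbers the wild-type libraries apart, as Wild_type_1, Wild_type_2 and Wild_type_3, whereas the 3 libraries of a mutation share 1 label. What these wild-type numbers stand for is not stated. The 3 libraries are called wild-type replicates 1, 2 and 3 here. Dicer is the ribonuclease that cuts microRNA precursors to mature microRNAs. The labels number the mutations without naming them and do not say whether the cells' own DICER1 gene was altered. All 4 groups carried a Dicer plasmid, and cells with an empty plasmid or none were not analysed here. Whether the 3 libraries of a group stem from different cultures is not stated, and p-values therefore reflect only how far these libraries vary, which may be technical.

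Glucose enters the cell through GLUT carriers, is trapped by hexokinase, committed by phosphofructokinase and split to pyruvate, which lactate dehydrogenase turns to lactate or the pyruvate dehydrogenase complex passes to the citric acid cycle. Several steps have paralogous enzymes that differ in kinetics or tissue, and cancer cells commonly carry more of the forms HK2, LDHA and the inducible PFKFB enzymes. Hypoxia-inducible factor is known to act on many of these genes through the short DNA word ACGTG, and MYC through the related CACGTG.

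Library totals ran from 13507341 to 17078273 counts. Levels are in CPM, a gene's count as a share of the library size scaled by TMM, the trimmed mean of M-values. The 7 genes listed as present in MDA-MB-231 were VIM, CD44, MSN, ZEB1, LGALS1, ANXA1 and AXL. All were tested and summed to 4847 to 6654 CPM in the 12 libraries. In mutation 1, 3 were higher and 3 lower (32.5% and 36.5% of all genes). The counts were 1 and 3 in mutation 2 (16.9% and 20.1%), and 2 and 2 in mutation 3 (28.1% and 31.2%). CD44 had 1648 to 1681 CPM in mutation 1, against 943.5, 516.1 and 522.6 CPM in wild type. VIM had 722.7 to 743.6 CPM in mutation 2, against 987.5, 1883 and 1873 CPM in wild type. The 6 genes listed as low or absent in that line, ESR1, PGR, ERBB2, EPCAM, CDH1 and GATA3, summed to 156.3 to 160.5 CPM in mutation 1, 131.5 to 139.3 CPM in mutation 2 and 111.9 to 115.5 CPM in mutation 3, against 168.2, 90.72 and 93.3 CPM in wild type. The hormone receptors ESR1 and PGR reached at most 0.653 and 0.0741 CPM, but the other 4 were not absent. ERBB2, which encodes the receptor HER2, had 84.3 to 98.01 CPM in mutations 1 and 2 and 68.4 to 72.9 CPM in mutation 3, against 111.5, 76.1 and 78.03 CPM in wild type. The epithelial adhesion gene EPCAM had 25.9 to 33.3 CPM in mutation 1 and 15.2 to 20.2 CPM in mutations 2 and 3, against 17.65, 5.64 and 4.59 CPM in wild type. E-cadherin, CDH1, had 9.58 to 12.2 CPM in mutation 1 and 0.523 to 1.197 CPM in mutations 2 and 3, against 13.85, 1.17 and 1.23 CPM in wild type, and GATA3 had 20.9 to 29.97 CPM in the mutations, against 25.1, 7.71 and 9.25 CPM in wild type. EPCAM and GATA3 were higher in mutation 1 (log2 fold change 1.72 and 1.02), ERBB2 was lower in mutation 3 (-0.32), and CDH1 was lower in mutations 2 and 3 (-2.76 and -3.14). Without wild-type replicate 1, all 4 were higher in mutation 1, where 40.2% of all genes were. In mutation 2, 3 were then higher and 0 lower (33% and 34.9% of all genes), so CDH1 was no longer called lower there. In mutation 3, 2 were higher and 2 lower (38.2% and 38.8% of all genes). DICER1 had 42.2 to 45.25 CPM in mutation 1, 44.4 to 45.7 CPM in mutation 2 and 38.8 to 40.1 CPM in mutation 3, against 27.4, 45.2 and 47.4 CPM in wild type, with no mutation called against wild type (log2 fold change 0.13, 0.18 and -0.02; adjusted p = 0.493, 0.406 and 0.916). Wild-type replicate 1 stood apart from wild-type replicates 2 and 3 in much else. Mitochondrial mRNAs took 1.27 to 1.36% of counts in mutation 1, between 4.48 and 5.57% in mutation 2 and between 4.81 and 5.05% in mutation 3, against 1.34% in wild-type replicate 1 and 5.04 and 5.09% in wild-type replicates 2 and 3. Of 9 secretory epithelium markers 6 were tested, and all 6 were lower in each mutation. That list summed to 1.68 to 2.11 CPM in mutation 1, 0.563 to 0.973 CPM in mutation 2 and 0.445 to 1.06 CPM in mutation 3, against 56.8, 1147 and 1134 CPM in wild type, with NKX2-1 and SCGB1A1 at 0 in all libraries. In such bulk libraries fewer cells of a type and less RNA per cell cannot be told apart. The 12 markers of other cell types summed to 10.2 to 29.6 CPM in the mutations, against 28.3 to 31.1 CPM in wild type. Of these 12, 3 were at 0 in all libraries, 6 others stayed under 1 CPM, and CD14, PECAM1 and GFAP were tested. CD14, a monocyte marker, had 22.2 to 27.02 CPM in mutation 1 and 5.98 to 9.41 CPM in mutations 2 and 3, against 20.5, 3.63 and 3.43 CPM in wild type, and was higher in mutation 1 (log2 fold change 1.45). PECAM1, an endothelial marker, had 0.352 to 0.915 CPM in the mutations, against 2.76, 17.09 and 15.3 CPM in wild type, and was 18.5-fold, 19.4-fold and 14.9-fold lower in mutations 1, 2 and 3. The glial marker GFAP had 1.62 to 1.81 CPM in mutation 1, 8.31 to 9.59 CPM in mutation 2 and 2.67 to 4.05 CPM in mutation 3, against 7.15 to 8.67 CPM in wild type, and was lower in mutations 1 and 3 (-2.19 and -1.16). The part of these differences in the results below was not tested, and the counts and the main genes against wild type are given with and without wild-type replicate 1.

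The glycolysis genes were themselves among the genes that set wild-type replicate 1 apart. Together they took 2.32 to 2.36% of counts in mutation 1, between 2.33 and 2.35% in mutation 2 and between 2.35 and 2.38% in mutation 3, against 3.13% in wild-type replicate 1 and 1.78 and 1.77% in wild-type replicates 2 and 3. All 9 mutant libraries thus lay between the wild-type libraries. Wild-type replicate 1 was above the mean of replicates 2 and 3 in 30 of the 34 genes (88.2%, where 45.8% of all genes tested were higher), and over 2-fold above it in 15 (44.1%, where 7.82% of all genes were). The median log2 difference between them was 0.81 for the 34 genes and -0.062 for all genes, with 0.5 CPM added to each value. The widest gaps were at PDK3 and PDK1, which were 5.67 and 4.84 times as high in replicate 1, followed by PGK1 and PFKFB4 at 3.13 times each and LDHA at 2.94 times. LDHB, PFKM, SLC16A1 and PFKFB2 ran the other way or were nearly level. The coefficient of variation of the 34 genes had a median of 2.59% in mutation 1, 2.71% in mutation 2 and 2.33% in mutation 3, against 37.8% in wild type.

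**Figure D1:**
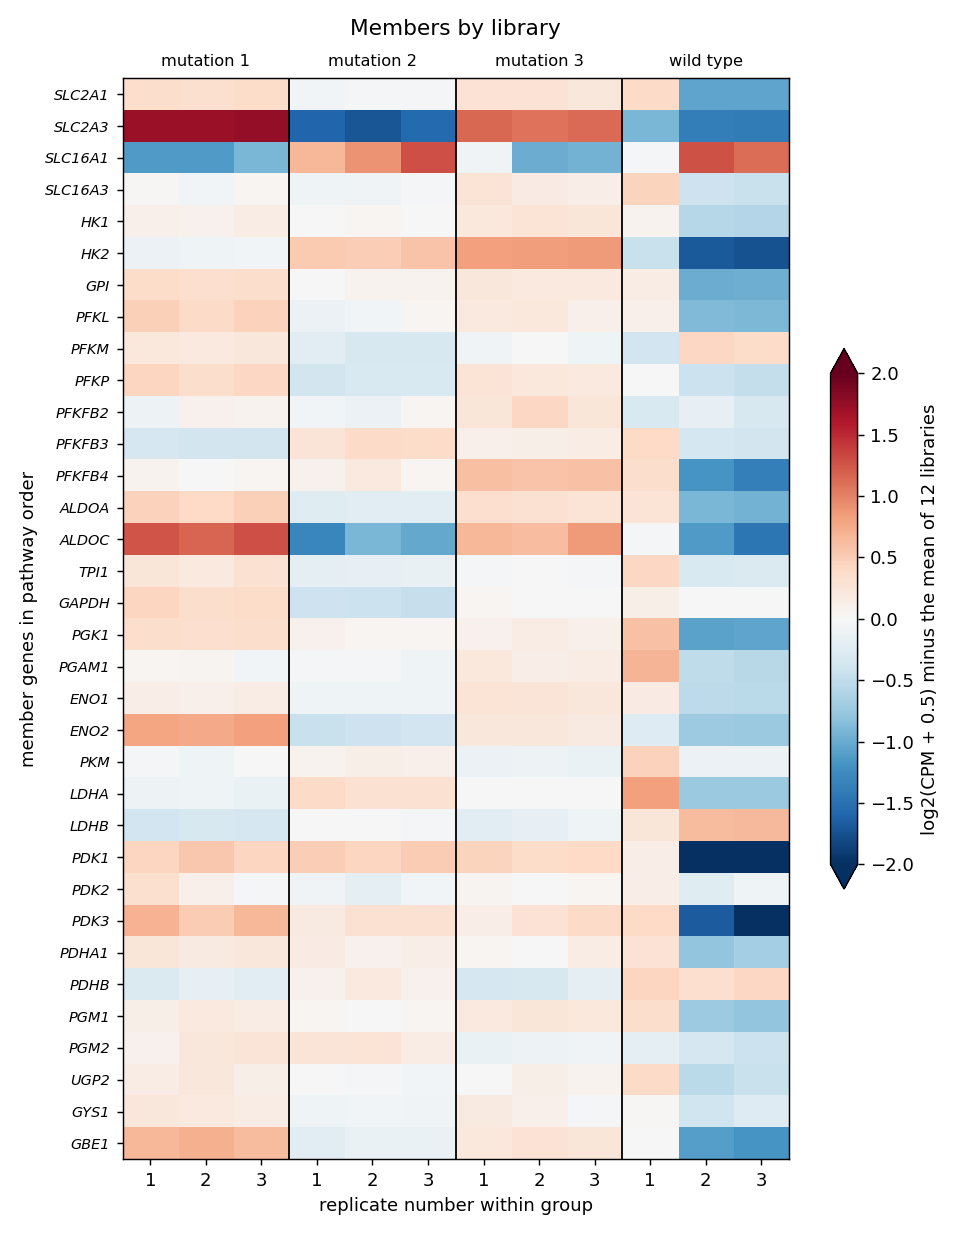
Each row is 1 of the 34 genes in pathway order and each column 1 library, mutations 1 to 3 and then wild type; colour is log2(CPM + 0.5) minus that gene's mean over the 12 libraries, with values past 2 in either direction drawn at the end of the scale. Mutant libraries of a group look alike, whereas wild-type replicate 1 is above replicates 2 and 3 in 30 of the rows.

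Against all 3 wild-type libraries, glycolysis genes were more often higher than lower in mutations 1 and 3. In mutation 1, 17 of the 34 rose and 3 fell at an adjusted p under 0.05 (edgeR quasi-likelihood test, Benjamini-Hochberg over all 15094 genes), where 32.5% of all genes were called higher and 36.5% lower. In mutation 3, 16 rose and 3 fell, where 28.1% of all genes were higher and 31.2% lower. Mutation 2 had few calls, 3 higher and 5 lower, where 16.9% of all genes were higher and 20.1% lower. The share of the 34 called in either direction was 58.8% in mutation 1, 23.5% in mutation 2 and 55.9% in mutation 3, beside 69%, 37% and 59.3% of all genes. Libraries did not overlap wild type for 19 genes in mutation 1 (68% of all genes), 8 in mutation 2 (42.6%) and 17 in mutation 3 (61%). Calls of at least 2-fold numbered 8 in mutation 1 (35.1% of all genes), 2 in mutation 2 (9.49%) and 6 in mutation 3 (24%). The median log2 fold change of the 34 was 0.438, 0.182 and 0.451 in mutations 1, 2 and 3, beside -0.037, -0.010 and -0.014 for all genes. These 3 comparisons share their wild-type libraries.

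The pattern over the 3 mutations was higher, not called and higher for 11 genes: HK1, GPI, PFKL, PFKP, PFKFB2, ALDOA, ALDOC, ENO1, ENO2, GYS1 and GBE1. HK2, PDK1 and PGM2 were higher in all 3 mutations, and LDHB and PDHB lower in all 3. SLC2A3 was higher in mutations 1 and 3 and lower in mutation 2, while GAPDH was higher in mutation 1 and lower in mutation 2. Another 12 genes, among them SLC2A1, PGK1, PKM and LDHA, were called in none of the 3. In the test among all 4 groups, 20 of the 34 differed, where 83% of all genes did. With the counts scaled by library totals alone, the median of all genes moved to -0.25 in mutation 1, -0.01 in mutation 2 and -0.14 in mutation 3. The calls then became 10 higher and 5 lower in mutation 1, where 24.9% of all genes were higher and 44% lower, and 9 higher and 5 lower in mutation 3, where 22.7% were higher and 36.5% lower. The 16 rises in mutation 3 also became 8 to 10 when any library of mutation 1 or 3 or wild-type replicate 2 or 3 was left out. Of all genes, at least 7969 were called in mutation 3 in either direction with any library left out, beside 8948 with all.

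Many of these calls changed with the wild-type libraries used. Without wild-type replicate 1, 29 genes rose and 4 fell in mutation 1, where 40.2% of all genes were higher and 42.5% lower (82.7% in all). In mutation 2, 26 rose and 5 fell (33% and 34.9% of all genes, 67.9% in all), and in mutation 3, 28 rose and 4 fell (38.2% and 38.8%, 77.1% in all). Set against wild-type replicate 1 alone, which is then assumed to vary like the other groups, 15 rose and 13 fell in mutation 1 (35.9% and 35% of all genes, 70.9% in all), 5 rose and 24 fell in mutation 2 (25.8% and 25.1%, 50.9% in all), and 11 rose and 14 fell in mutation 3 (33.3% and 33.2%, 66.5% in all). The median log2 fold change of the 34 genes was 0.679, 0.478 and 0.766 without replicate 1 and 0.008, -0.255 and -0.042 against it alone, for mutations 1, 2 and 3. Genes called the same way under both choices numbered 14 higher and 3 lower in mutation 1, 4 higher and 4 lower in mutation 2, and 10 higher and 2 lower in mutation 3. Those called in opposite directions numbered 10, 18 and 11. Of the genes that rose against all 3 wild-type libraries, HK1, ENO1 and PDK3 in mutation 1 and GPI, PFKL, ALDOA, ENO1, GYS1 and PGM2 in mutation 3 were not called against replicate 1 alone. Of those that fell, PFKM in mutation 2 and SLC16A1 in mutation 3 were not called against it. HK2, PDK1 and PFKFB2 were higher in all 3 mutations under both choices, and LDHB and PDHB were lower in all 3 under both.

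**Figure D2:**
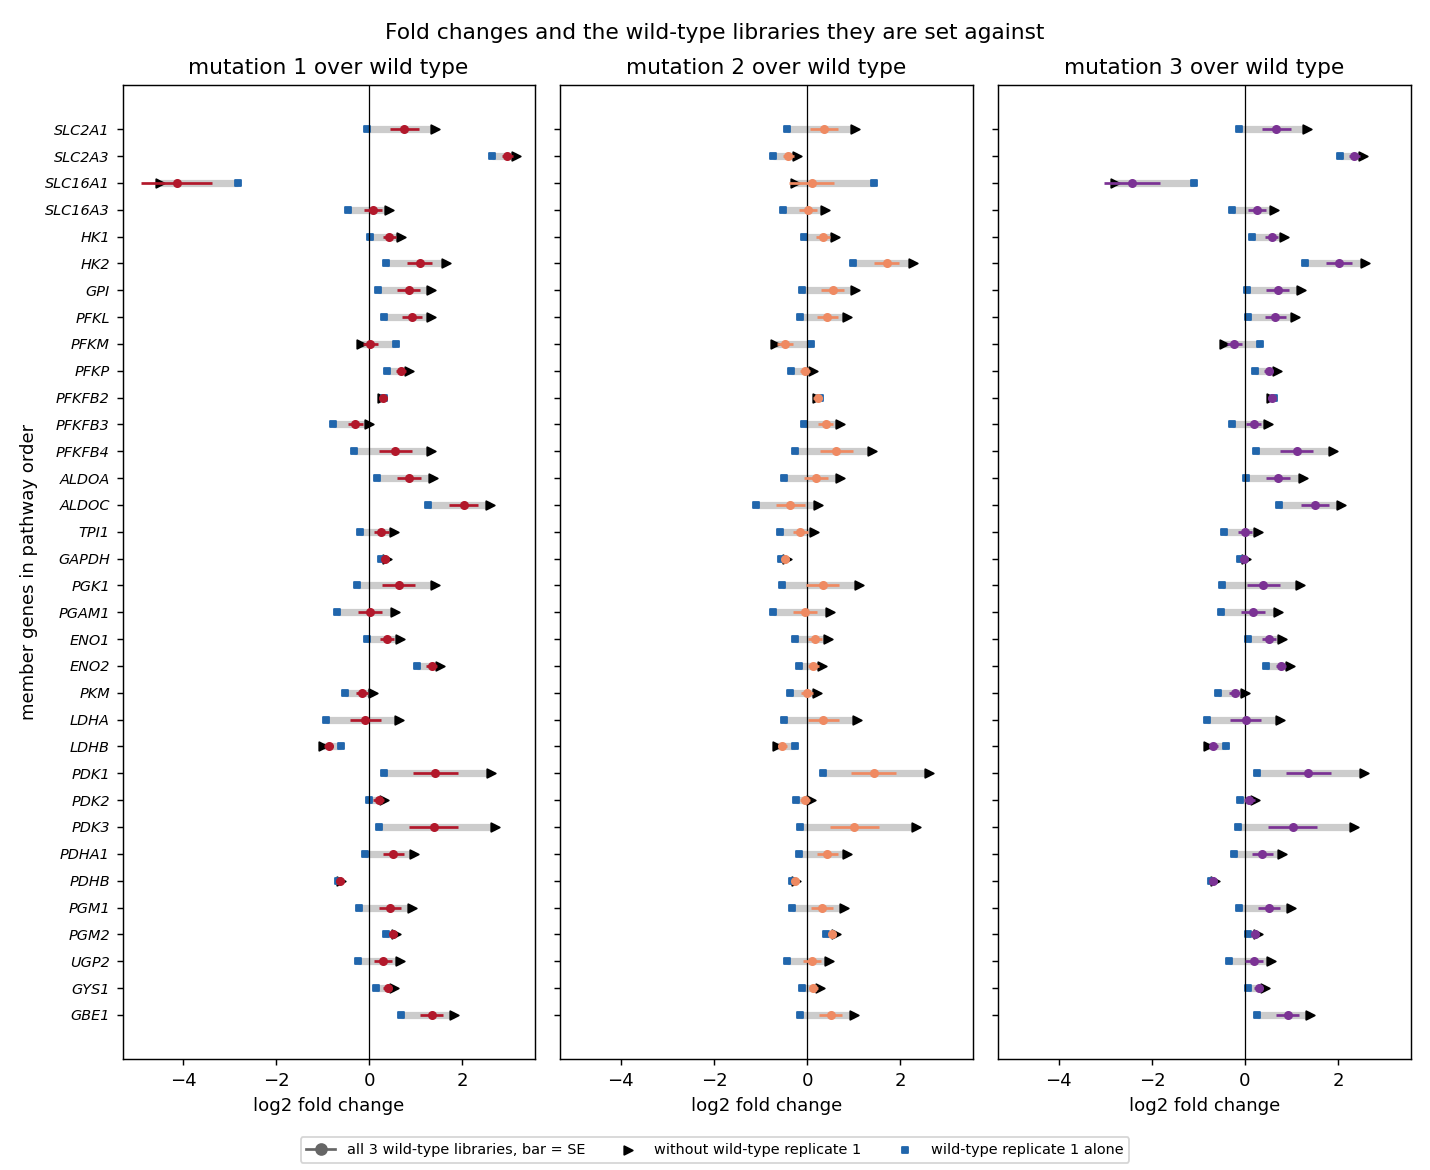
Log2 fold change over wild type for each of the 34 genes in mutations 1, 2 and 3 on a shared axis; circles use all 3 wild-type libraries with the SE as a bar, triangles leave out wild-type replicate 1 and squares use it alone. The grey span from square to triangle crosses 0 for many genes, whereas SLC2A3, HK2, PDK1, LDHB and PDHB keep to 1 side of it in each panel.

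Promoters are shown for 5 of the genes the results turn on: HK2, ALDOC and ENO2, which are the less widely expressed paralogs of their steps and were called in mutations 1 and 3, and the pair LDHA and LDHB, which ran opposite ways within wild type. RefSeq start sites on GRCh38.p14 were found for 31 of the 34 genes (SLC2A3, SLC16A1 and PFKFB2 are named only), and each sequence runs 5′ to 3′ on the gene's strand from 250 bases before the start to 50 after it. For HK2 and LDHA, which have 2 such windows each, the one with more matches is shown. Capitals mark ACGTG or its reverse complement CACGT, and CACGTG holds both and counts as 2 matches.
HK2, chr2:74834920-74835219, plus strand, 4 matches: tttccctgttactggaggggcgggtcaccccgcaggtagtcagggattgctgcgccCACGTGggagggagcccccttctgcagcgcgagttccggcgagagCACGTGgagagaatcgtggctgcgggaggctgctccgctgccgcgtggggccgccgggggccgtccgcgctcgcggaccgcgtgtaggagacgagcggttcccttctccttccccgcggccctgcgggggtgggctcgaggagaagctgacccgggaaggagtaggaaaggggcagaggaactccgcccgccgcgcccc
ALDOC, chr17:28576846-28577145, minus strand, 3 matches: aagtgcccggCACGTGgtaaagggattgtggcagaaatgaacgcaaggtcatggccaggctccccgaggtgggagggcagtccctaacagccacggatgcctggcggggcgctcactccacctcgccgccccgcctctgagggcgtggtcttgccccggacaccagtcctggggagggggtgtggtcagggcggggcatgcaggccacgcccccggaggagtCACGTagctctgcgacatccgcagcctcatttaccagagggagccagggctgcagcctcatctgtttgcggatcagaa
ENO2, chr12:6914330-6914629, plus strand, 1 match: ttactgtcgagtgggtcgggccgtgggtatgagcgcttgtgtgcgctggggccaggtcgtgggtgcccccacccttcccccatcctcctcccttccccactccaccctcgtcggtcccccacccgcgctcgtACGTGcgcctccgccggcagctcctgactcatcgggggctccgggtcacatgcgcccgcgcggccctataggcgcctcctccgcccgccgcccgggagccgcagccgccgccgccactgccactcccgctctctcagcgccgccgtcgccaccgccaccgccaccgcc
LDHA, chr11:18394313-18394612, plus strand, 5 matches: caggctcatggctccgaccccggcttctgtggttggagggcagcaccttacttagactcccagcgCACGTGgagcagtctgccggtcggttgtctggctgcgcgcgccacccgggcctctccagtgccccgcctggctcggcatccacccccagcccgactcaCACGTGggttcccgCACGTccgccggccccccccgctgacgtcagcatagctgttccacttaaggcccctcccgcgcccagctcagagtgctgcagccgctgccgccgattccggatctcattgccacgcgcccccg
LDHB, chr12:21657793-21658092, minus strand, 0 matches: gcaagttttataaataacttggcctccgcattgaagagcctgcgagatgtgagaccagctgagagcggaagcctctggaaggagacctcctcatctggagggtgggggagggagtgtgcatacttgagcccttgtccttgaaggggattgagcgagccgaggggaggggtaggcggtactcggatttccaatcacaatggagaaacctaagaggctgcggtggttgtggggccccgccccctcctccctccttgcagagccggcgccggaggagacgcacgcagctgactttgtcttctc

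Over all windows of the 31 genes, 25 of 62 (40.3%) held ACGTG on either strand, beside 21.4% of the 35116 windows of all genes. CACGTG was in 14.5% of the 31 genes' windows and 7.26% of all. Counted by gene, 21 of the 31 (67.7%) had ACGTG in some window, beside 24.9% of the 27305 genes with windows, whether or not tested here. The 31 genes had 62 windows and the 27305 genes 35116, so the 31 had more windows per gene in which to match. Of the 31, 13 had several windows. Whether matches go with the calls was not tested. Of genes higher in mutations 1 and 3 and not called in mutation 2, HK1, PFKL, ENO1 and GYS1 had no ACGTG in any window. GPI, PFKP, ALDOA, ALDOC, ENO2 and GBE1 had it in some window, as did HK2, PDK1 and PGM2, which were higher in all 3 mutations. PDHB, lower in all 3 mutations, had 3 matches, whereas LDHB, also lower in all 3, had 0. A match is a description of the letters, not of a bound site.

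Of the glucose carriers, SLC2A3 was called in all 3 mutations and SLC2A1 in none. SLC2A3 (chr12:7919230-7936275, minus strand, GRCh38 as in GENCODE v29, as are the gene positions below) encodes GLUT3, a high-affinity glucose carrier best known from neurons. It had 295, 295 and 301 CPM in mutation 1, 29.3, 26.8 and 29.8 CPM in mutation 2 and 197, 189 and 194 CPM in mutation 3, against 46.99, 33.6 and 33.3 CPM in wild type. No library of any group overlapped another group's. In mutation 1 it was 7.82-fold higher (log2 fold change 2.97, SE 0.12, adjusted p = 9.21e-09) and in mutation 3 the log2 fold change was 2.35 (SE 0.12, adjusted p = 9.1e-08). In mutation 2 the log2 fold change was -0.41 (SE 0.12, adjusted p = 0.019), and that call was lost without mutation 2 replicate 2 and in a fit of these 2 groups alone. Without wild-type replicate 1 the 3 values were 3.15, -0.22 and 2.54, and against it alone 2.65, -0.72 and 2.03, for mutations 1, 2 and 3. SLC2A1 encodes GLUT1, the carrier of basal glucose uptake in most cells. It had 886 to 908 CPM in mutation 1, 678 to 696 CPM in mutation 2 and 832 to 866 CPM in mutation 3, against 925, 340 and 340 CPM in wild type. Its log2 fold changes of 0.75, 0.36 and 0.67 were not called (adjusted p = 0.051, 0.39 and 0.084). Without wild-type replicate 1 they were 1.41, 1.02 and 1.33, all called higher, and against it alone -0.05, -0.43 and -0.13, with mutations 2 and 3 called lower.

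Of the hexokinases, HK2 was higher in all 3 mutations and HK1 in mutations 1 and 3. Of all genes, 32.5%, 16.9% and 28.1% were higher in mutations 1, 2 and 3. HK2 (chr2:74833981-74893359, plus strand) encodes the inducible hexokinase of muscle, fat and many tumours, which binds mitochondria. It had 93.0, 94.5 and 97.0 CPM in mutation 1, 146, 142 and 150 CPM in mutation 2 and 179, 181 and 182 CPM in mutation 3, against 73.3, 31.1 and 29.7 CPM in wild type. Every mutant library was above every wild-type library, and the order was mutation 3, mutation 2, mutation 1. The log2 fold changes were 1.09, 1.71 and 2.02 in mutations 1, 2 and 3 (SE 0.27, 0.28 and 0.28; adjusted p = 0.0045, 0.0009 and 0.00012), or 1.64, 2.27 and 2.57 without wild-type replicate 1 and 0.36, 0.99 and 1.29 against it alone. HK1, the hexokinase found in most tissues, had 372 to 386 CPM in mutation 1, 351 to 358 CPM in mutation 2 and 407 to 421 CPM in mutation 3, against 369, 235 and 233 CPM in wild type. It rose in mutations 1 and 3 (log2 fold change 0.44 and 0.57, adjusted p = 0.02 and 0.0059), and these were 0.70 and 0.83 without wild-type replicate 1 and 0.02 and 0.16 against it alone.

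GPI, which turns glucose 6-phosphate to fructose 6-phosphate, and the phosphofructokinase subunits come next. GPI rose in mutation 1 (log2 fold change 0.85, adjusted p = 0.0099) and mutation 3 (0.70, adjusted p = 0.029), with 572 to 585 CPM in mutation 1, 456 to 480 CPM in mutation 2 and 519 to 533 CPM in mutation 3, against 506, 228 and 232 CPM in wild type. Those GPI values were 1.34 and 1.20 when wild-type replicate 1 was left out, and 0.18 and 0.04 against it alone. PFKP (chr10:3066333-3137712, plus strand) is the platelet-type subunit. It had 847, 806 and 838 CPM in mutation 1, 488, 510 and 508 CPM in mutation 2 and 759, 731 and 718 CPM in mutation 3, against 632, 469 and 455 CPM in wild type. Mutations 1 and 3 lay above all wild-type libraries (log2 fold change 0.68 and 0.51, SE 0.11 each, adjusted p = 0.00018 and 0.0018), while mutation 2 lay among them. Both PFKP calls held without wild-type replicate 1 (0.85 and 0.68) and against it alone (0.38 and 0.21). PFKL, the liver-type subunit, rose in the same 2 mutations (0.92 and 0.65, adjusted p = 0.0034 and 0.024; 1.34 and 1.08 without wild-type replicate 1, 0.32 and 0.06 against it alone). PFKM, the muscle-type subunit, had 105 to 107 CPM in mutation 1, 73.0 to 78.6 CPM in mutation 2 and 86.2 to 92.7 CPM in mutation 3, against 70.0, 123 and 119 CPM in wild type. It fell in mutation 2 (log2 fold change -0.47, adjusted p = 0.044), but this became 0.089 against wild-type replicate 1 alone.

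The PFKFB enzymes make and break fructose 2,6-bisphosphate, the activator of phosphofructokinase. PFKFB3, the form with the highest kinase activity, was not called against wild type: it had 83.2 to 85.6 CPM in mutation 1, 129 to 141 CPM in mutation 2 and 116 to 120 CPM in mutation 3, against 142, 84.6 and 83.5 CPM in wild type. Mutation 1 thus lay close to wild-type replicates 2 and 3, while mutation 2 lay close to replicate 1. PFKFB4, known as a hypoxia-inducible form, had 56.3 to 58.8 CPM in mutation 1, 57.5 to 63.6 CPM in mutation 2 and 83.4 to 84.75 CPM in mutation 3, against 71.3, 24.3 and 21.2 CPM in wild type, and rose in mutation 3 (log2 fold change 1.11, SE 0.35, adjusted p = 0.019). That rise was 1.88 without wild-type replicate 1 and 0.23 against it alone, called in both. PFKFB2 stayed between 16.4 and 27.6 CPM in all libraries. It rose in mutations 1 and 3 (log2 fold change 0.29 and 0.58, adjusted p = 0.013 and 0.00024), the first not called when libraries were scaled by their totals or in a fit of those 2 groups, and its exons overlap those of YOD1 by 315 bases on the other strand, which unstranded counting does not separate.

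The aldolases cut fructose 1,6-bisphosphate into trioses, and ALDOC had larger fold changes than ALDOA in mutations 1 and 3. ALDOC (chr17:28573115-28577264, minus strand), the form named for brain, had 37.9, 35.5 and 38.5 CPM in mutation 1, 5.98, 7.98 and 7.39 CPM in mutation 2 and 24.9, 24.2 and 28.3 CPM in mutation 3, against 15.3, 6.82 and 5.37 CPM in wild type. Mutations 1 and 3 were above all other libraries, and mutation 2 lay within the wild-type range. The log2 fold changes were 2.03 (SE 0.30, adjusted p = 0.00014) in mutation 1, -0.36 (adjusted p = 0.4) in mutation 2 and 1.50 (SE 0.30, adjusted p = 0.0014) in mutation 3. They were 2.60 and 2.07 for mutations 1 and 3 without wild-type replicate 1, and 1.27 and 0.74 against it alone. ALDOA, the main aldolase of muscle and most cells, had 2287 to 2398 CPM in mutation 1, 1459 to 1497 CPM in mutation 2 and 2077 to 2181 CPM in mutation 3, against 2084, 915 and 897 CPM in wild type. It rose in mutation 1 (log2 fold change 0.86, adjusted p = 0.013) and mutation 3 (0.71, adjusted p = 0.035), or by 1.38 and 1.24 without wild-type replicate 1 and 0.16 and 0.02 against it alone. TPI1, which interconverts the trioses, was not called against all 3 wild-type libraries. Without wild-type replicate 1 its log2 fold changes in mutations 1, 2 and 3 were 0.54, 0.14 and 0.28. Against it alone they were -0.19, -0.59 and -0.45.

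In lower glycolysis GAPDH, often used as a reference gene, separated the mutations. GAPDH (chr12:6533927-6538374, plus strand) had 3258, 3055 and 3121 CPM in mutation 1, 1799, 1794 and 1741 CPM in mutation 2 and 2481, 2418 and 2381 CPM in mutation 3, against 2600, 2420 and 2406 CPM in wild type. It was high in all mutation 1 libraries, low in all mutation 2 libraries, and close to level in mutation 3 and all 3 wild-type libraries. GAPDH rose by a log2 fold change of 0.35 in mutation 1 (SE 0.05, adjusted p = 0.00018), was lower in mutation 2 at -0.48 (SE 0.05, adjusted p = 0.00011) and was not called in mutation 3 at -0.03 (adjusted p = 0.67). Scaled by library totals, the rise in mutation 1 was 0.13 and no longer called. The annotation names 62 GAPDH pseudogenes, and reads of mapping quality under 10 were left out, so its level is uncertain. PGK1 and PGAM1, the next 2 enzymes, were not called in any mutation against all 3 wild-type libraries. PGAM1 log2 fold changes in mutations 1, 2 and 3 were 0.55, 0.49 and 0.71 without wild-type replicate 1. Against it alone they were -0.68, -0.74 and -0.52. PGK1 had 1522 to 1533 CPM in mutation 1, 1236 to 1271 CPM in mutation 2 and 1280 to 1326 CPM in mutation 3, against 1805, 575 and 577 CPM in wild type, so the mutants lay between the wild-type libraries. Its log2 fold changes in mutations 1, 2 and 3 were 1.41, 1.12 and 1.18 without wild-type replicate 1, all called higher, and -0.25, -0.54 and -0.49 against it alone, all called lower.

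Of the enolases, ENO2 had the larger fold changes in mutations 1 and 3. ENO2 (chr12:6913745-6923698, plus strand), the form known from neurons and neuroendocrine cells, had 513, 501 and 523 CPM in mutation 1, 217, 222 and 227 CPM in mutation 2 and 347, 349 and 338 CPM in mutation 3, against 250, 179 and 177 CPM in wild type. Mutations 1 and 3 were above every wild-type library, and mutation 2 lay between wild-type replicate 1 and the others. In mutation 1 it was 2.54-fold higher (log2 fold change 1.35, SE 0.11, adjusted p = 1.7e-06), and in mutation 3 the log2 fold change was 0.77 (SE 0.11, adjusted p = 0.00016). These ENO2 values were 1.53 and 0.96 without wild-type replicate 1 and 1.02 and 0.46 against it alone. ENO1, the form of most tissues, had 4043 to 4152 CPM in mutation 1, 3541 to 3550 CPM in mutation 2 and 4422 to 4523 CPM in mutation 3, against 4223, 2611 and 2600 CPM in wild type. Its rises in mutations 1 and 3 (log2 fold change 0.39 and 0.51, adjusted p = 0.042 and 0.014) became 0.66 and 0.79 without wild-type replicate 1 and -0.05 and 0.07 against it alone. PKM, pyruvate kinase, was not called, with 4156 to 4371 CPM in mutation 1, 4613 to 4758 CPM in mutation 2 and 4000 to 4090 CPM in mutation 3, against 6045, 4079 and 4053 CPM in wild type.

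**Figure D3:**
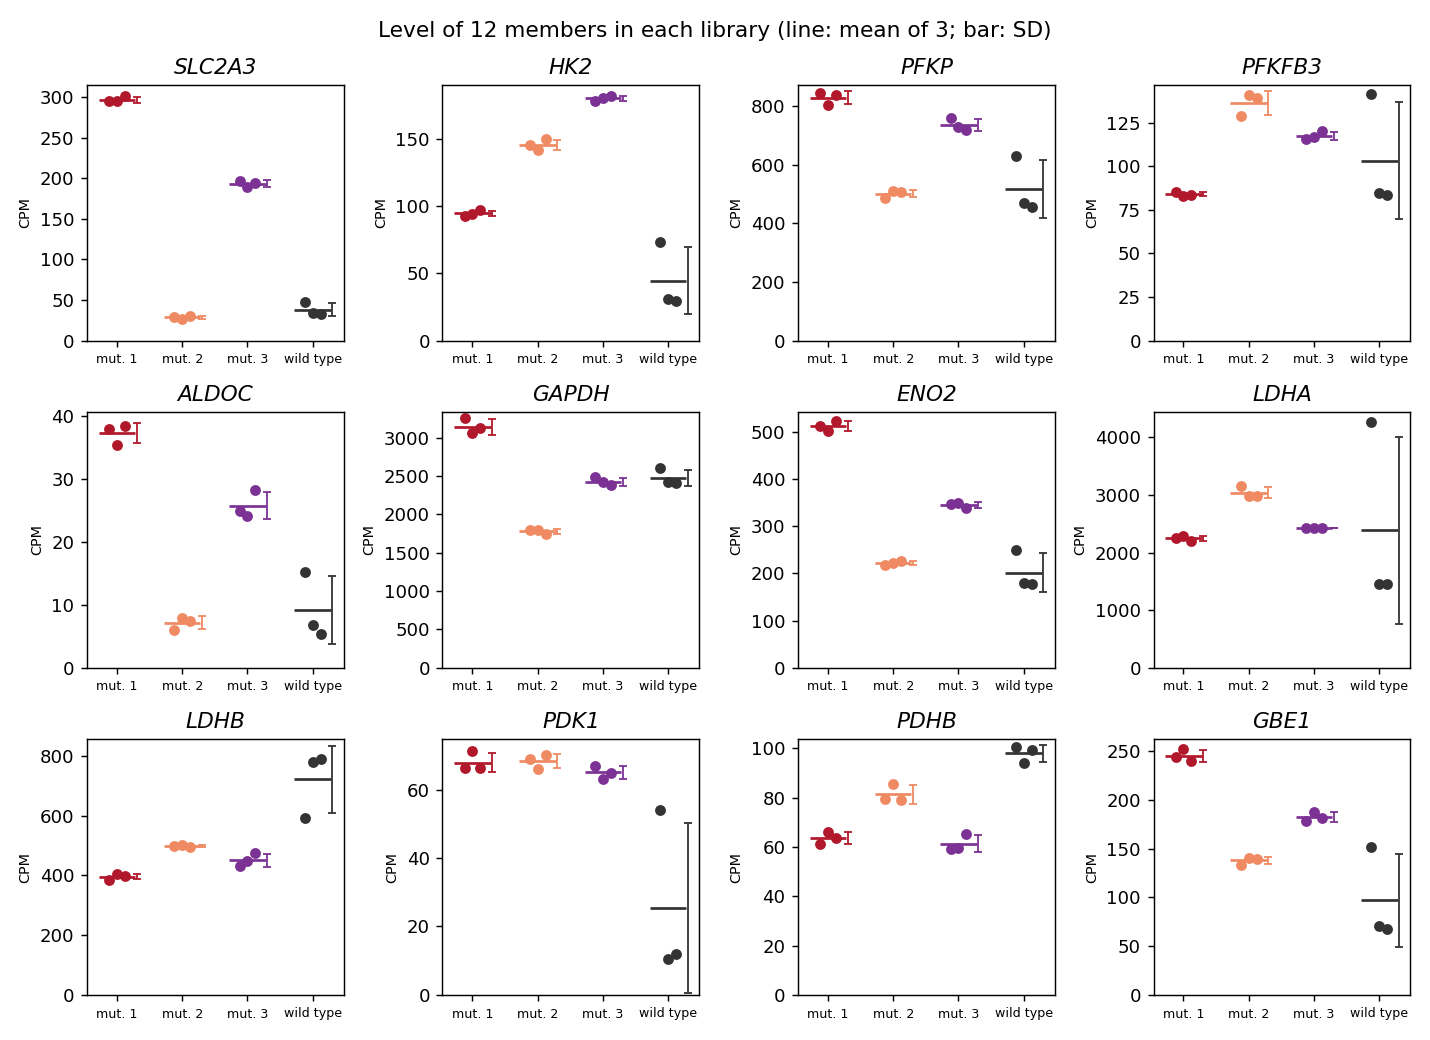
CPM of 12 of the genes in each library, mutations 1 to 3 and then wild type; points are libraries, lines group means and bars the SD of 3 libraries, with each axis from 0. In most panels the highest wild-type point is replicate 1, up to 4264 CPM for LDHA against 1453 and 1451 CPM in replicates 2 and 3.

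Of the lactate dehydrogenase subunits, LDHB fell in all 3 mutations and LDHA was called in none. LDHB (chr12:21635342-21757857, minus strand), the heart-type subunit that favours pyruvate formation, had 386, 403 and 398 CPM in mutation 1, 498, 502 and 495 CPM in mutation 2 and 430, 449 and 474 CPM in mutation 3, against 592, 780 and 791 CPM in wild type. Every mutant library was below every wild-type library. The log2 fold changes were -0.87, -0.53 and -0.68 in mutations 1, 2 and 3 (SE 0.10 each; adjusted p = 1.5e-05, 0.0017 and 0.00014), or -0.99, -0.65 and -0.80 without wild-type replicate 1 and -0.59, -0.26 and -0.40 against it alone. LDHA (chr11:18394388-18408425, plus strand), the muscle-type subunit that favours lactate formation, had 2253, 2290 and 2198 CPM in mutation 1, 3155, 2988 and 2984 CPM in mutation 2 and 2427, 2427 and 2422 CPM in mutation 3, against 4264, 1453 and 1451 CPM in wild type. All mutant libraries lay between the wild-type libraries, and no mutation was called (log2 fold change -0.09, 0.35 and 0.02). Leaving out wild-type replicate 1 made the LDHA values 0.63, 1.07 and 0.75, and against it alone -0.94, -0.49 and -0.82, for mutations 1, 2 and 3.

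The monocarboxylate carriers move lactate across the cell membrane. SLC16A3, which encodes the hypoxia-inducible MCT4, had 611 to 652 CPM in mutation 1, 600 to 627 CPM in mutation 2 and 696 to 767 CPM in mutation 3, against 869, 479 and 465 CPM in wild type, and was not called. Its log2 fold changes in mutations 1, 2 and 3 were 0.44, 0.38 and 0.63 without wild-type replicate 1. Against that library alone they were -0.46, -0.51 and -0.27 for SLC16A3. Its exons overlap those of CSNK1D by 482 bases on the other strand, and unstranded counts cannot assign such reads. SLC16A1, which encodes MCT1, was close to absent, with 0.0671 to 0.16 CPM in mutation 1, 1.48 to 2.54 CPM in mutation 2 and 0.131 to 0.689 CPM in mutation 3, against 0.722, 2.51 and 2.20 CPM in wild type. It was lower in mutation 1 (log2 fold change -4.13, SE 0.76, adjusted p = 0.00062) and mutation 3 (-2.43, SE 0.61, adjusted p = 0.0053), on counts so low that the fold is imprecise. Without wild-type replicate 1 these 2 values were -4.50 and -2.79, and against it alone -2.82 and -1.10, the last not called.

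At the entry to the mitochondrion, PDK1 and PDHB were called in all 3 mutations in opposite directions. In the test among all 4 groups PDHB was called (adjusted p = 5.9e-06), whereas PDK1 was not (adjusted p = 0.057). PDK1 (chr2:172555373-172608669, plus strand) encodes a kinase that switches pyruvate dehydrogenase off. It had 66.3, 71.2 and 66.2 CPM in mutation 1, 69.0, 66.1 and 70.2 CPM in mutation 2 and 67.0, 63.1 and 64.9 CPM in mutation 3, against 54.0, 10.4 and 11.9 CPM in wild type. All 9 mutant libraries were within 63.1 to 71.2 CPM and above all wild-type libraries. The log2 fold changes were 1.42, 1.43 and 1.36 in mutations 1, 2 and 3 (SE 0.48 each; adjusted p = 0.022, 0.039 and 0.031), or 2.62, 2.63 and 2.56 without wild-type replicate 1 and 0.32, 0.34 and 0.26 against it alone. PDK3, a second such kinase, had 16.5 to 18.8 CPM in mutation 1, 12.95 to 14.3 CPM in mutation 2 and 12.5 to 15.04 CPM in mutation 3, against 15.2, 3.24 and 2.14 CPM in wild type, and was called in mutation 1 (log2 fold change 1.39, SE 0.53, adjusted p = 0.036). This PDK3 value was 2.71 without wild-type replicate 1, and 0.21 and not called against it alone. PDK2 was not called.

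PDHB (chr3:58427630-58433857, minus strand) encodes the beta subunit of pyruvate dehydrogenase. It had 61.0, 66.2 and 63.5 CPM in mutation 1, 79.3, 85.7 and 78.9 CPM in mutation 2 and 59.1, 59.5 and 65.2 CPM in mutation 3, against 101, 93.9 and 99.3 CPM in wild type. The 3 wild-type libraries lay close together here, and all mutant libraries were below them. The log2 fold changes were -0.62, -0.27 and -0.68 in mutations 1, 2 and 3 (SE 0.06 each; adjusted p = 6.6e-06, 0.0066 and 6.2e-06), or -0.60, -0.24 and -0.65 without wild-type replicate 1 and -0.67, -0.32 and -0.73 against it alone. PDHA1, the alpha subunit, was not called, with 118 to 124 CPM in mutation 1, 111 to 117 CPM in mutation 2 and 105 to 115 CPM in mutation 3, against 128, 60.6 and 65.1 CPM in wild type. Its log2 fold changes in mutations 1, 2 and 3 were 0.95, 0.87 and 0.80 without wild-type replicate 1. Against that library alone they were -0.09, -0.17 and -0.24.

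Of the 5 genes listed under glycogen synthesis, 3 rose in mutation 1, 1 in mutation 2 and 3 in mutation 3, and none fell. Of all genes, 32.5%, 16.9% and 28.1% were higher. PGM2, which encodes a phosphopentomutase, rose in all 3 mutations and was the only gene of the 5 called in mutation 2. The others that rose were GBE1 and GYS1, both in mutations 1 and 3. Without wild-type replicate 1 all 5 were higher in each mutation (40.2%, 33% and 38.2% of all genes), and against it alone 3 were higher and 2 lower in mutation 1, 1 and 3 in mutation 2, and 1 and 2 in mutation 3. GBE1 (chr3:81489699-81762161, minus strand), the branching enzyme, had 244, 252 and 239 CPM in mutation 1, 133, 141 and 140 CPM in mutation 2 and 178, 188 and 181 CPM in mutation 3, against 152, 71.1 and 67.4 CPM in wild type. Mutations 1 and 3 were above all wild-type libraries (log2 fold change 1.34 and 0.91, SE 0.25 each, adjusted p = 0.00063 and 0.0082), and mutation 2 lay between them. Leaving out wild-type replicate 1 made these GBE1 values 1.83 and 1.40, and against it alone they were 0.68 and 0.25. PGM2, a phosphopentomutase related to the phosphoglucomutases, had 73.3 to 82.5 CPM in mutation 1, 76.6 to 83.1 CPM in mutation 2 and 63.0 to 65.6 CPM in mutation 3, against 61.0, 54.6 and 50.9 CPM in wild type. It rose in all 3 (log2 fold change 0.50, 0.54 and 0.21; adjusted p = 0.00013, 0.00033 and 0.031), but the call in mutation 3 was lost under 12 of 19 other settings, among them leaving out any library of mutation 1 or 3 or wild-type replicate 2 or 3. GYS1, muscle glycogen synthase, rose in mutations 1 and 3 by 0.39 and 0.29 (adjusted p = 0.0042 and 0.024), while PGM1 and UGP2, which make glucose 1-phosphate and UDP-glucose, were not called. Log2 fold changes of PGM1 in mutations 1, 2 and 3 were 0.91, 0.79 and 0.98 without wild-type replicate 1. They were -0.21, -0.33 and -0.14 against it alone. Those of UGP2 were 0.66, 0.46 and 0.56 without it and -0.23, -0.42 and -0.33 against it alone.

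The 3 mutations were also compared with each other. The ratio of the highest to the lowest group mean among the mutations was under 1.5 for 24 of the 34 genes, between 1.5 and 2 for 6, and above 2 for SLC2A3 (10.4), SLC16A1 (19.6), ALDOC (5.24) and ENO2 (2.31), with a median of 1.30. Mutation 1 had the highest mean in 18 genes, and mutation 2 the lowest in 23. In mutation 1 against mutation 2, 10 genes were higher and 4 lower, where 31.8% of all genes were higher and 33.6% lower (65.4% in all). Libraries did not overlap for 28 genes, beside 81.6% of all genes. The higher ones included SLC2A3 (log2 fold change 3.37, SE 0.12, adjusted p = 5e-09), ALDOC (2.39, SE 0.31, adjusted p = 4.9e-05), ENO2 (1.21, SE 0.11, adjusted p = 3.7e-06) and GAPDH (0.82, SE 0.05, adjusted p = 2.5e-07), and the lower ones PFKFB3 (-0.70, adjusted p = 0.0036), LDHB, PDHB and SLC16A1. Scaled by library totals the split was 6 higher and 7 lower, where 24.4% of all genes were higher and 41.5% lower, with the median of all genes at -0.23.

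In mutation 1 against mutation 3, 4 genes were higher and 3 lower, where 20.2% of all genes were higher and 22.5% lower (42.8% in all), and libraries did not overlap for 29, beside 69.8% of all genes. SLC2A3, GAPDH, ENO2 and PGM2 were the higher ones (log2 fold change 0.62, 0.37, 0.57 and 0.29), and HK2, PFKFB2 and PFKFB3 the lower ones (-0.93, -0.28 and -0.48). Mutation 2 against mutation 3 gave 3 higher and 6 lower, where 27.2% of all genes were higher and 25.7% lower (52.9% in all), and libraries did not overlap for 31, beside 75.9% of all genes. PDHB, PGM2 and SLC16A1 were higher, and SLC2A3 (-2.76), ALDOC (-1.85), ENO2 (-0.64), PFKP (-0.55), GAPDH (-0.45) and PFKFB2 (-0.35) lower. These tests shared their estimate of spread with the wild-type libraries. Fitted on the 2 groups compared alone, the calls were 21 higher and 7 lower for mutation 1 against mutation 2 (41.2% and 42.4% of all genes, 83.6% in all), 18 and 11 for mutation 1 against mutation 3 (35% and 35.9%, 70.9% in all), and 7 and 23 for mutation 2 against mutation 3 (38.8% and 39%, 77.7% in all).

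Ratios between paralogs within a library do not depend on scaling. The counts of SLC2A3 were 0.325 to 0.333 times those of SLC2A1 in mutation 1, 0.0388 to 0.0432 times in mutation 2 and 0.218 to 0.233 times in mutation 3, against 0.0508, 0.0990 and 0.0978 times in wild type. No group overlapped wild type. HK2 had 0.249 to 0.254 times the counts of HK1 in mutation 1, 0.397 to 0.426 times in mutation 2 and 0.429 to 0.440 times in mutation 3, against 0.199, 0.132 and 0.128 times in wild type. For ALDOC over ALDOA, too, no mutation overlapped wild type, and mutation 2 was below it as for SLC2A3 over SLC2A1. The log2 differences from wild type were 0.75, 1.46 and 1.54 for HK2 over HK1 in mutations 1, 2 and 3, 2.06, -0.93 and 1.52 for SLC2A3 over SLC2A1, and 1.20, -0.53 and 0.81 for ALDOC over ALDOA. Each had an exact two-sided permutation p of 0.1, the smallest that 3 against 3 allows, and an adjusted p of 0.2 over 30 tests, so none could pass. LDHA had 5.53 to 5.84 times the counts of LDHB in mutation 1, 5.95 to 6.34 times in mutation 2 and 5.11 to 5.64 times in mutation 3, against 7.21, 1.86 and 1.83 times in wild type. PFKM over PFKL was likewise 0.255 to 0.304 in the mutations, against 0.232 in wild-type replicate 1 and 0.810 and 0.793 in wild-type replicates 2 and 3.

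**Figure D4:**
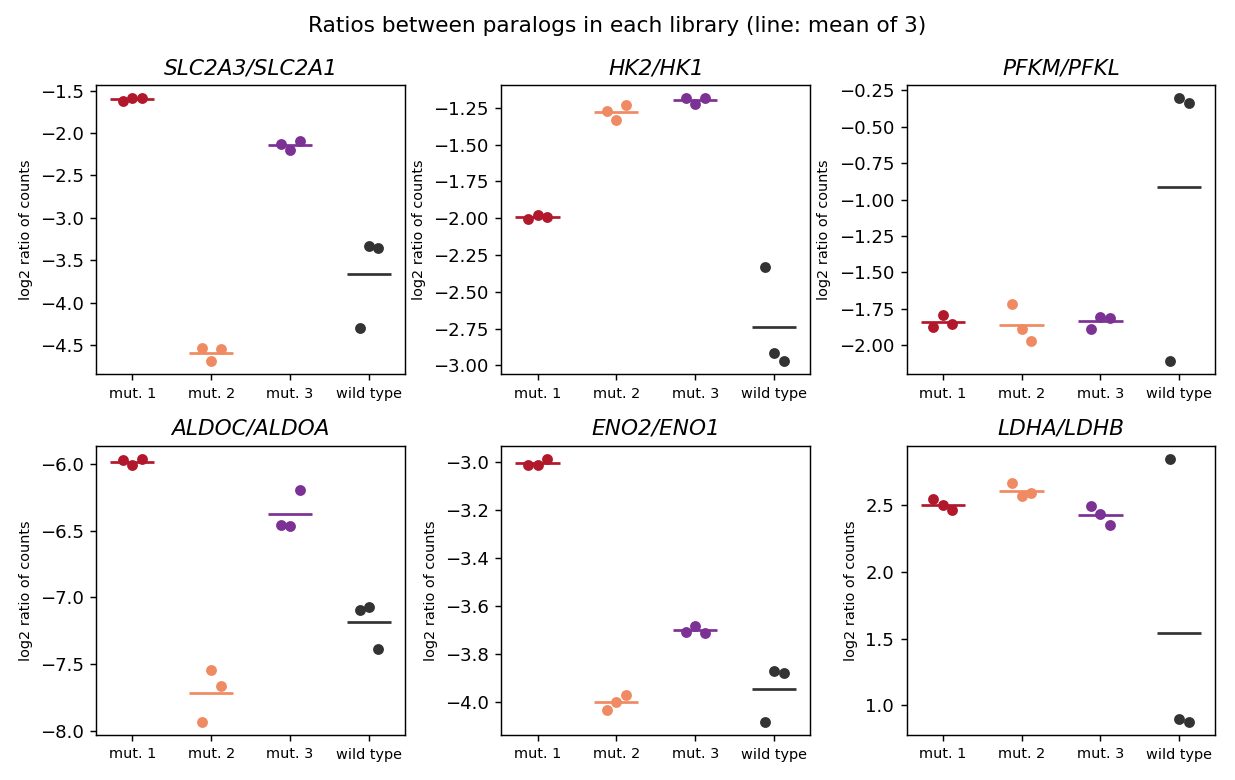
Log2 ratio of counts of 6 paralog pairs in each library, mutations 1 to 3 and then wild type; points are libraries and lines group means, and each panel has its own axis. For SLC2A3/SLC2A1, HK2/HK1 and ALDOC/ALDOA no mutant library overlaps wild type, while for PFKM/PFKL and LDHA/LDHB wild-type replicate 1 lies on the mutants' side and replicates 2 and 3 far from it.

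Per kb of exon, GAPDH was the most abundant of the 34 genes, with mean levels of 1055 CPM per kb in mutation 1, 596 in mutation 2 and 814 in mutation 3, against 830 in wild type. ENO1, PKM and ALDOA followed over the 12 libraries. On the same scale ENO2 reached 119.7 CPM per kb in mutation 1, 51.8 in mutation 2 and 80.5 in mutation 3, against 47.1 in wild type, so even in mutation 1 it was well below ENO1, which had 779. SLC2A3 reached 48.2 CPM per kb in mutation 1, 4.65 in mutation 2 and 31.4 in mutation 3, against 6.16 in wild type, below SLC2A1 in every group, whose mean was 190.5, 146 and 180.5 in the mutations and 113 in wild type.

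In neighbouring pathways genes were called in both directions, beside 69%, 37% and 59.3% of all genes called in mutations 1, 2 and 3. Among 15 tested genes of other glycolytic forms and regulators, 6 were higher and 2 lower in mutation 1, 2 and 3 in mutation 2, and 4 and 5 in mutation 3, or 53.3%, 33.3% and 60% called. TIGAR, a phosphatase that lowers fructose 2,6-bisphosphate, had 0.281 to 0.403 CPM in mutation 1, 10.1 to 10.8 CPM in mutation 2 and 0.519 to 0.939 CPM in mutation 3, against 13.1, 13.97 and 13.3 CPM in wild type. It was 39.1-fold lower in mutation 1 (adjusted p = 5.7e-09) and 17.6-fold lower in mutation 3 (adjusted p = 3.4e-08), and here the wild-type libraries lay together. BSG, the chaperone of the lactate carriers, was higher in mutation 1 and lower in mutations 2 and 3 (log2 fold change 0.24, -0.72 and -0.25), and SLC2A10, another sugar carrier, was lower in mutations 2 and 3 (-3.41 and -3.05). BSG had 975.5 to 1049 CPM in mutation 3, against 1004, 1317 and 1283 CPM in wild type. Wild-type replicate 1 thus lay within the mutation 3 range.

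Of 11 tested genes of pyruvate entry and its alternatives, 4 were higher and 1 lower in each mutation, or 45.5% called. PDP1, a phosphatase that switches pyruvate dehydrogenase on and so opposes the PDK kinases, had 198, 209 and 207 CPM in mutation 1, 102, 101 and 100.1 CPM in mutation 2 and 151, 152 and 150.4 CPM in mutation 3, against 77.8, 61.6 and 53.4 CPM in wild type. It rose in all 3 (log2 fold change 1.67, 0.65 and 1.23; adjusted p = 2.5e-07, 0.00099 and 4.2e-06). PDP2 rose in mutations 1 and 3 (1.15 and 1.49), and PCK2, mitochondrial PEP carboxykinase, was lower in all 3 (-0.99, -0.72 and -1.25).

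The pentose phosphate list had 4 higher and 3 lower of 10 in mutation 1, 2 and 3 in mutation 2, and 4 and 4 in mutation 3, or 70%, 50% and 80% called. PGD, an enzyme of its oxidative branch, was lower in mutations 1 and 3 (log2 fold change -0.98 and -0.61), and PRPS1 was lower in mutations 1 and 3 and higher in mutation 2 (-0.58, -0.89 and 0.20). Of 24 tested glycogen genes beyond the 34, 9 were higher and 8 lower in mutation 1, 4 and 5 in mutation 2, and 6 and 7 in mutation 3, or 70.8%, 37.5% and 54.2% called. PHKA2, a regulatory subunit of phosphorylase kinase, had 59.2 to 64.0 CPM in mutation 1, 34.7 to 38.3 CPM in mutation 2 and 61.6 to 62.1 CPM in mutation 3, against 20.5, 14.97 and 15.6 CPM in wild type, and rose in all 3 (1.86, 1.11 and 1.86). PPP1R3B, which targets a phosphatase to glycogen, rose in mutations 1 and 3 (1.73 and 1.999), and GAA, the lysosomal glucosidase, rose in mutations 1 and 3 and fell in mutation 2 (0.37, 0.77 and -0.74).

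Of 9 tested genes of the shuttles that carry cytosolic NADH electrons, 3 were higher and 5 lower in mutation 1, 3 and 1 in mutation 2, and 1 and 4 in mutation 3, or 88.9%, 44.4% and 55.6% called. SLC25A13 and SLC25A12, the mitochondrial aspartate-glutamate carriers, were lower in mutations 1 and 3: SLC25A13 had 19.3 to 21.9 CPM in mutation 1, 67.1 to 74.8 CPM in mutation 2 and 32.1 to 33.5 CPM in mutation 3, against 58.2, 43.5 and 45.7 CPM in wild type. GPD1L was lower in mutations 1 and 3 as well (log2 fold change -0.89 and -0.51). In mutation 2 it had 25.55 to 27.63 CPM, against 19.95 to 22.07 CPM in wild type. For SLC25A13 and GPD1L every mutation 2 library was above every wild-type library, whereas for SLC25A12 every one was below. All 18 citric acid cycle genes were tested, with 7 higher and 8 lower in mutation 1, 1 and 6 in mutation 2, and 4 and 9 in mutation 3, or 83.3%, 38.9% and 72.2% called. FH, fumarase, had 51.2 to 52.5 CPM in mutation 1, 94.9 to 100 CPM in mutation 2 and 61.6 to 62.9 CPM in mutation 3, against 108, 100 and 101 CPM in wild type, and fell in mutations 1 and 3 (-0.996 and -0.731). IDH1 fell in all 3 (-0.97, -0.69 and -0.90), and SUCLG2 rose in mutations 1 and 3 and fell in mutation 2 (0.50, 0.24 and -0.49). Without wild-type replicate 1 the citric acid cycle counts were 9 higher and 8 lower, 5 and 7, and 7 and 9, for mutations 1, 2 and 3. Of all genes, 40.2% and 42.5%, 33% and 34.9%, and 38.2% and 38.8% were then higher and lower. The median log2 fold change of this list was 0.171, -0.045 and -0.125 without replicate 1. Against it alone the median was -0.135, -0.201 and -0.258.

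The other lists also shifted with the wild-type libraries. Given here are higher and lower counts without wild-type replicate 1, in mutations 1, 2 and 3. Beside them stand 40.2% and 42.5%, 33% and 34.9%, and 38.2% and 38.8% of all genes. Each list's median log2 fold change is given without replicate 1 and against it alone. The other glycolytic forms had 8 and 3, 8 and 6, and 7 and 7, with medians of 0.134, 0.345 and 0.04 without it and 0.379, -0.273 and -0.043 against it alone. The pyruvate entry list had 7 and 2, 7 and 2, and 9 and 1, with medians of 0.73, 0.536 and 0.393 without it and 0.013, 0.144 and 0.076 against it alone. The pentose phosphate list had 5 and 3, 4 and 3, and 6 and 4, with medians of 0.233, 0.002 and 0.139 without it and -0.083, -0.31 and -0.295 against it alone. The NADH shuttle list had 4 and 5, 6 and 2, and 5 and 4, with medians of -0.471, 0.267 and 0.103 without it and -0.56, -0.144 and -0.422 against it alone. The glycogen list had 11 and 10, 10 and 8, and 9 and 9, with medians of -0.098, 0.008 and 0.078 without it. Against it alone, with 26 tested, they were 0.037, -0.086 and -0.009.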

How the data were processed

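The authors deposited raw read-pair counts for each gene, in a separate table for every library. Per the file headers, featureCounts 2.0.6 ignored strand, summed exons within each gene of an Ensembl annotation on hg38 and required a mapping quality of at least 10. Trimming and alignment tools named in the submitters' processing notes were cutadapt 1.9.1 and STAR, beside FastQC 0.11.8, SAMtools and DESeq2; versions of STAR and SAMtools are not given in the sources used here. Members and lists were chosen with earlier results of these data known. Symbols were matched for 56591 gene IDs, and positions and exon lengths came from GENCODE v29. Genes were kept by filterByExpr with a count of 10 and a total of 15 as minima, leaving 15094. edgeR 4.0.16 (R 4.3.3) fitted all 12 libraries in 1 robust quasi-likelihood model with TMM scaling and 8 residual degrees of freedom, which was checked on simulated data, with Benjamini-Hochberg adjustment over all genes and a threshold of 0.05. Adjusted p-values for genes come from this fit unless named otherwise, and the SE is approximate, from the F value. Paralog ratios were compared with exact permutation tests. Any of the 34 genes could be named, as could markers and up to 3 genes of each other list, those with the lowest adjusted p among the 4 groups. Replicate numbers of mutant libraries are only names. Alternatives were DESeq2 1.42.0, its size factors, library totals, TMM without mitochondrial genes, no filter, fits of 2 groups and each library left out. Wild-type replicate 1 alone was added after the gap within wild type was seen. Promoter windows were searched by exact match on both strands. Library totals of 13507341 to 17078273 limit the precision of low genes such as SLC16A1.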

Additional observations from a re-analysis of the deposited data

How the results depend on the processing

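Each of the 34 genes against wild type in 3 mutations gives 102 comparisons. The sign turned in 13 of them without wild-type replicate 1 and in 42 against it alone, a setting added after the data were seen. Each other setting turned 0 to 7 signs, in 14 comparisons in all whose log2 fold change with all libraries was at most 0.20 in size. Of these turns, the comparison was called with all libraries or under the alternative in 8 without wild-type replicate 1, in 33 against it alone and in 0 otherwise. The cause was not tested. With each library left out in turn, the log2 fold change of those 8 ranged from -0.19 to 0.16 for PFKM, -0.25 to 0.076 for PKM and -0.35 to 0.63 for LDHA in mutation 1. In mutation 2 it ranged from -0.13 to 0.13 for PFKP, -0.27 to 0.14 for TPI1, -0.25 to 0.49 for PGAM1 and -0.11 to 0.21 for PKM, and in mutation 3 from -0.13 to 0.28 for TPI1. The value without wild-type replicate 1 was the lowest for PFKM and the highest for the others. For those 33, the value against replicate 1 alone was, in mutation 1, -0.46 for SLC16A3, -0.33 for PFKFB4, -0.19 for TPI1, -0.25 for PGK1, -0.68 for PGAM1, -0.053 for ENO1, -0.21 for PGM1 and -0.23 for UGP2. In mutation 2 it was -0.43 for SLC2A1, -0.51 for SLC16A3, -0.11 for GPI, -0.16 for PFKL, 0.089 for PFKM, -0.25 for PFKFB4, -0.50 for ALDOA, -0.54 for PGK1, -0.26 for ENO1, -0.18 for ENO2, -0.49 for LDHA, -0.17 for PDHA1, -0.33 for PGM1, -0.42 for UGP2 and -0.15 for GBE1. In mutation 3 it was -0.13 for SLC2A1, -0.27 for SLC16A3, 0.33 for PFKM, -0.28 for PFKFB3, -0.49 for PGK1, -0.52 for PGAM1, -0.82 for LDHA, -0.24 for PDHA1, -0.14 for PGM1 and -0.33 for UGP2.

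Leaving out each library in turn, the members higher than wild type ranged from 13 to 29 in mutation 1, between 2 and 26 in mutation 2 and between 8 and 28 in mutation 3, each highest without wild-type replicate 1, and those lower from 3 to 4, 3 to 5 and 3 to 4. Higher members ranged from 6 to 22 for mutation 1 against mutation 2, 4 to 19 for mutation 1 against mutation 3 and 3 to 7 for mutation 2 against mutation 3, and lower ones from 4 to 7, 0 to 12 and 6 to 23. Members differing among the 4 groups ranged from 12 without mutation 1 replicate 1 or 3 (13 without replicate 2) to 34 without wild-type replicate 1 (20 with all libraries, where 83% of all genes differed). The 16 members higher in mutation 3 became 8 to 10 without any library of mutation 1 or 3 or wild-type replicate 2 or 3. The 3 lower in mutation 1 against mutation 3 became 0 or 1 without any library of either group, the 10 higher in mutation 1 against mutation 2 became 6 without mutation 2 replicate 2 or 3, and the 5 lower in mutation 2 became 3 without mutation 2 replicate 2. All genes called against wild type ranged from 9644 to 13064, 4208 to 10726 and 7969 to 12179 for mutations 1, 2 and 3. For mutation 1 against mutation 2 they ranged from 8963 to 12677. For mutations 1 and 2 against mutation 3 they ranged from 5146 to 10521 and from 6763 to 11518. Against wild-type replicate 1 alone, 13 members were lower in mutation 1, 5 higher and 24 lower in mutation 2 and 14 lower in mutation 3. That setting gave 21 higher and 7 lower members for mutation 1 against mutation 2, 19 and 12 for mutation 1 against mutation 3 with 10571 genes called in all, 7 and 22 for mutation 2 against mutation 3, and 34 members differing among the groups. With library totals, 10 members were higher and 5 lower in mutation 1, 9 and 5 in mutation 3, and 6 and 7 for mutation 1 against mutation 2. With no filter, 10 were higher in mutation 3, 6 higher for mutation 1 against mutation 2 and 0 lower for mutation 1 against mutation 3. Fitted on 2 groups alone, 8 members were higher in mutation 1 and 6 in mutation 3, 2 were lower in mutation 2 against wild type with 2589 genes called, and between mutations 21 and 7, 18 and 11 (10073 genes called) and 7 and 23 were higher and lower. DESeq2 gave 19 higher and 3 lower members in mutation 1, 3 and 5 in mutation 2, and 16 and 3 in mutation 3. It called 10382, 5846 and 8973 of all genes against wild type in mutations 1, 2 and 3. The log2 ratio of SLC16A3 over SLC16A1 in mutation 2 went the other way without wild-type replicate 1, at 0.68 beside -0.18. No paired analysis was possible because the mutant libraries carry no replicate numbers in the labels.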
